A study of Rattus norvegicus with 22 samples.

Results

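The peroxisomal beta-oxidation genes were followed in the livers of 22 rats on Agilent two-colour microarrays. They comprised Acox2, Acox3, Ehhadh, Hsd17b4, Acaa1a, Decr2, Ech1, Crat and Pex11a. They were taken as the non-control probes whose gene name in the array files, ignoring case, was one of these 9 names, which gave 10 of the 30367 probes on the array. All 9 genes had a probe that passed the detection filter, and Acaa1a had 2. The rats had received a semi-synthetic control diet for 3 months (CD 3, n = 5) or 14 months (CD 14, n = 6), or a diet enriched with biologically active substances (BASE-diet) for 3 months (BD 3, n = 5) or 14 months (BD 14, n = 6). In the BASE-diet, salmon fat (6%) took the place of most of the lard, and linden inflorescence extract (8%), pumpkin puree (8%) and 2 probiotic bacterial strains (1%) were added. The paper also lists more rapeseed oil in the BASE-diet than in the control diet. The paper describes the animals as male Sprague–Dawley rats, and since all changes of the diet were made at once, no component can be told apart from the others. The same common reference, pooled liver RNA of healthy rats aged 10 weeks that took no part in the experiment, was hybridized on every array, and each array held 1 rat. Values below are log2 ratios of the rat (Cy5, according to the labels) to this reference (Cy3), and a difference between diets is a difference of such ratios.

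Peroxisomes shorten fatty acids that mitochondria handle poorly, such as very long-chain, branched and highly unsaturated fatty acids, and the side chains of bile acid precursors. An acyl-CoA oxidase starts each round and gives off hydrogen peroxide, a multifunctional enzyme hydrates and dehydrogenates the product, and a thiolase cleaves it, so that shortened acyl groups leave for the mitochondria as carnitine esters. Many of these genes are known targets of PPARalpha, a nuclear receptor that binds fatty acids and is abundant in rodent hepatocytes.

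The probes of Acox2, Ech1 and Decr2 and 1 of the 2 probes of Acaa1a are shown with their sequences, since the results turn on them and these 60 bases are what each array measured. Each lies on the rat genome build rn4 as annotated in the array files, and each could be read in at least 1 frame without a stop codon.
Acox2 probe, chr15:18673090-18673149: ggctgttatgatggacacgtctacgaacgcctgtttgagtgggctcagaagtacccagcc
Ech1 probe, chr1:83938502-83938561: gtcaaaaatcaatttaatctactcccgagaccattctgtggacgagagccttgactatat
Decr2 probe, chr10:15353577-15353636, minus strand: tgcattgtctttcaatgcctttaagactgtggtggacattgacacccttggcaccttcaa
Acaa1a probe shared with Acaa1b, chr8:124313700-124313759: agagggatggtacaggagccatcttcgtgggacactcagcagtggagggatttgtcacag

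The signals were well above background on all 22 arrays for 9 of the 10 probes. The Acox3 probe, the dimmest, reached this on 21 arrays, and its processed Cy5 signal ran from 14.4 to 215. No member probe was saturated on any array. Signal over background differed between arrays, with 52.4% to 93.6% of spots well above background in Cy5, and the lowest share was that of CD 3 replicate 4. All 6 hepatocyte markers searched (Alb, Ttr, Apoa1, Tf, Serpina1, Fgb) were well above background on every array, as the liver label requires. Since whole liver was measured, fewer cells of a type and less RNA per cell cannot be told apart.

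None of the 9 genes passed the test in any comparison. By their brightest probes, their adjusted p in the moderated F test over the 4 groups was 0.313 or more by limma, and 0.247 by the other Acaa1a probe, where 5 of 19434 tested probes (0.0257%) were called at an adjusted p of 0.05. Of the comparisons of groups, BD 3 against CD 3, BD 14 against CD 14, CD 14 against CD 3, BD 14 against BD 3 and the difference of the diet effect between 14 and 3 months each had 0 called probes, or 0% of those tested, while 1381, 893, 1970, 1446 and 932 probes in this order had an unadjusted p under 0.05. BASE-diet against control diet, averaged over both times, had 1 (0.00515%), which was Acot1, a cytosolic acyl-CoA thioesterase and PPARalpha target that is not a member. Averaged over both times, the log2 difference was above 0 for 9 of 9 members and ran from 0.06 for Hsd17b4 to 1.16 for Ehhadh, with a median of 0.64, while 57.2% of all tested probes were above 0 and their median was 0.05. Of the members, 5 were higher at an unadjusted p under 0.05 (Ehhadh, Ech1, Decr2, Crat and Pex11a) and 0 were lower, beside 5.53% of all probes that were higher and 1.66% that were lower at this level. The lowest adjusted p of a member in this comparison was 0.579, so that the differences described below are values that did not pass the correction.

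**Figure D1:**
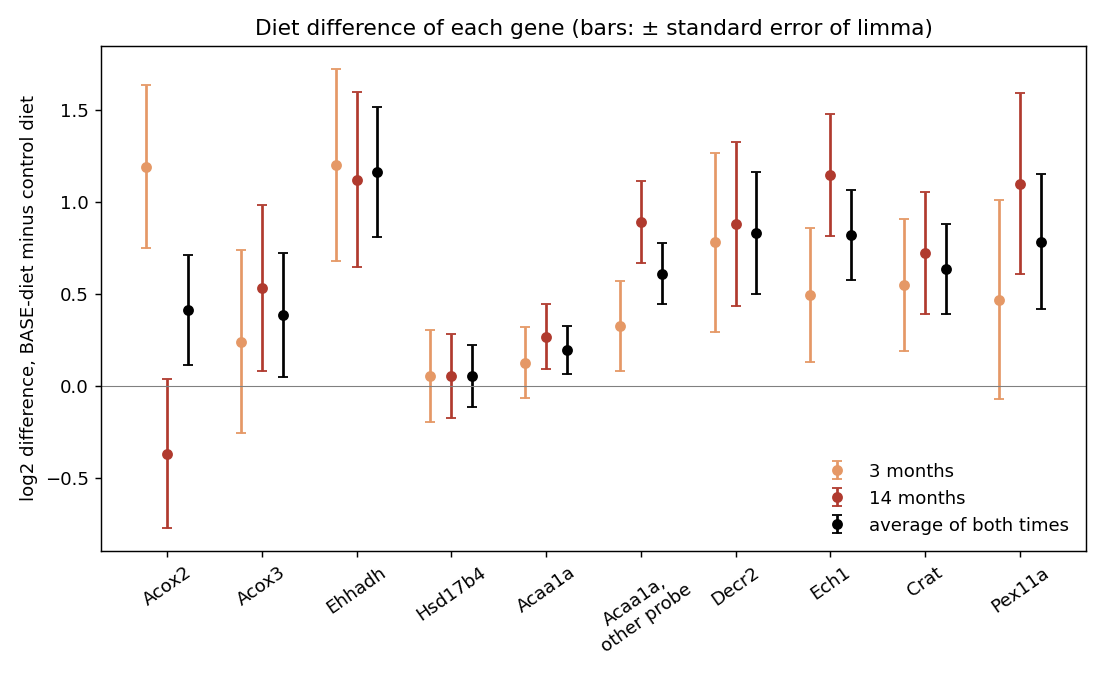
Log2 difference between BASE-diet and control diet (y axis) for each gene and for the other Acaa1a probe (x axis), at 3 months, at 14 months and averaged over both times; bars are ± 1 standard error from limma. All averages lie above 0, from 0.06 for Hsd17b4 to 1.16 for Ehhadh, while Acox2 was at 1.19 at 3 months and at -0.36 at 14 months.

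At 3 months, 9 of 9 members had a log2 difference above 0, with a median of 0.50 against 0.03 over all probes, and with slide as a block 7 of 9, with a median of 0.28. The unadjusted p was under 0.05 for 2 of them, Acox2 and Ehhadh, beside 4.99% of all probes that were higher at this level. At 14 months, 8 of 9 were above 0, with a median of 0.73 against 0.05 over all probes. The 4 members with an unadjusted p under 0.05 were Ech1, Ehhadh, Pex11a and Crat, beside 3.79% of all probes. In none of the members were all BASE-diet arrays above all control arrays, at 3 months (0.515% of probes) or at 14 months (0.653%).

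**Figure D2:**
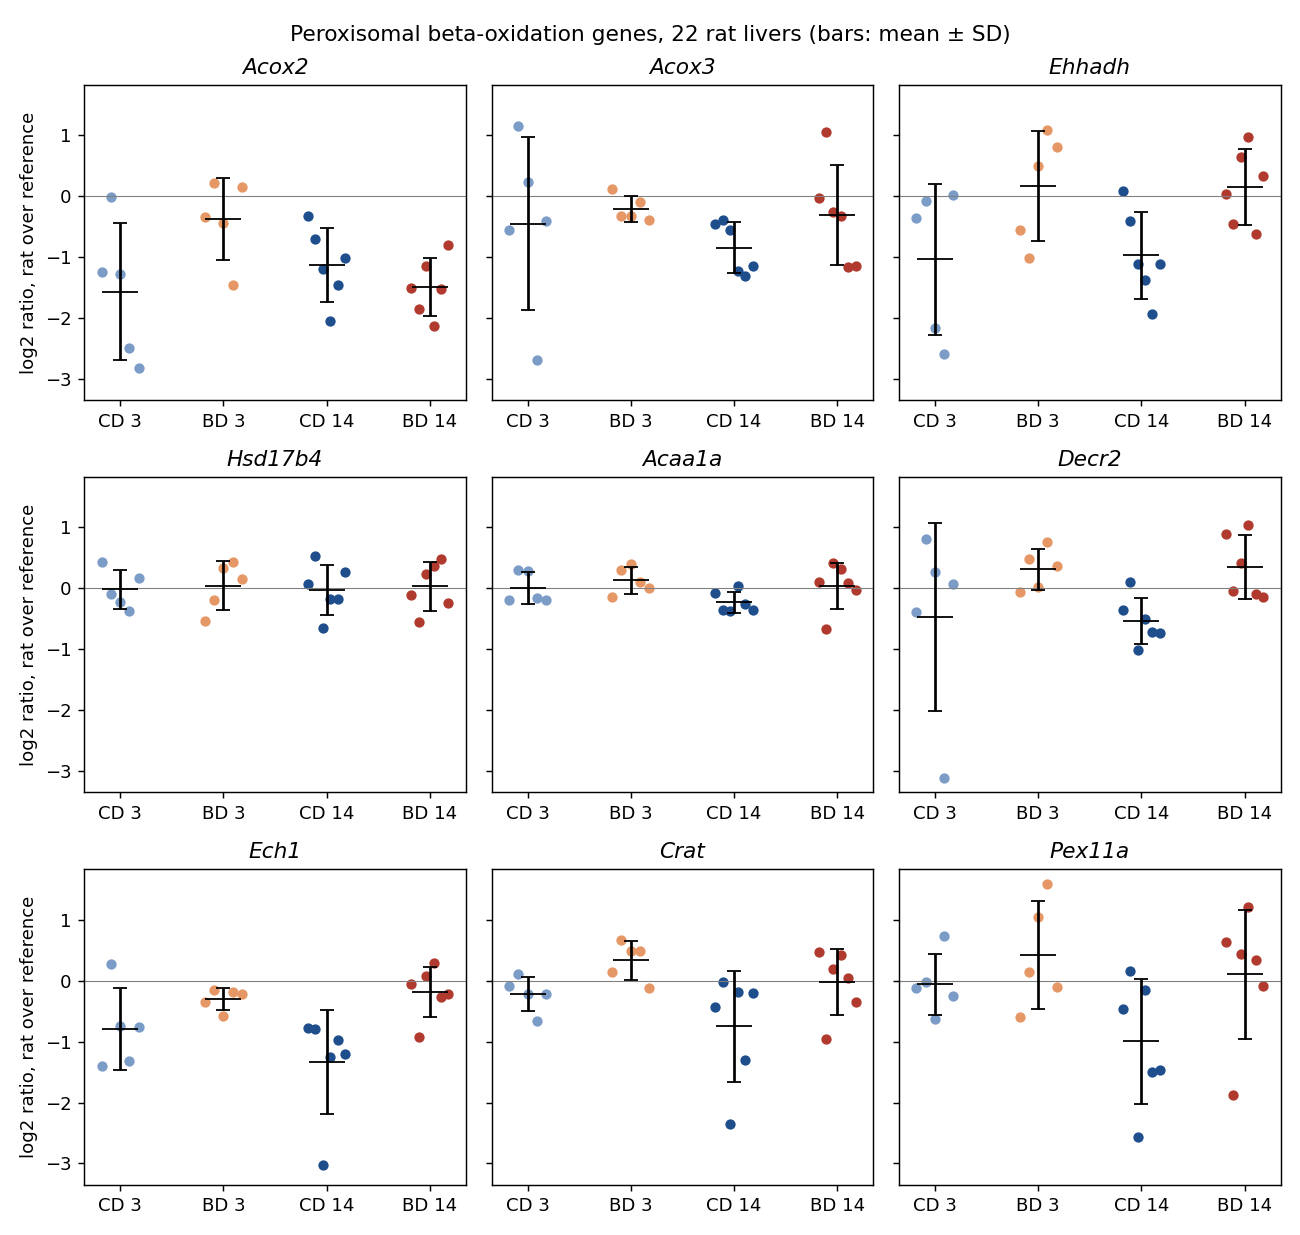
Log2 ratio of rat liver to the common reference (y axis) on each array, by group (x axis), for the 9 genes; points are single rats and bars the mean ± SD of 5 (3 months) or 6 (14 months) rats. The groups overlap for every gene, and the control groups of Ehhadh, with means of -1.04 and -0.97, lie below both BASE-diet groups, with means of 0.17 and 0.15.

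The step after the oxidases is carried out by the 2 multifunctional enzymes, of which Ehhadh (L-bifunctional protein) prefers straight-chain substrates and Hsd17b4 (D-bifunctional protein) also handles branched chains and bile acid intermediates. Without regard to slide, Ehhadh had larger diet differences than Hsd17b4, but not at 3 months with slide as a block. The 2 genes were not tested against each other. Ehhadh on the 5 CD 3 arrays was at -0.36, -0.09, -2.16, -2.60 and 0.02, and on the 5 BD 3 arrays at -0.56, -1.01, 0.50, 1.08 and 0.81. At 14 months, its lowest, median and highest values were -1.93, -1.11 and 0.09 in CD 14, and -0.62, 0.19 and 0.97 in BD 14. All 6 BD 14 arrays lay above the median of CD 14 and 3 of them above its highest array, whereas at 3 months 3 of 5 BD 3 arrays lay above the CD 3 median. By limma without regard to slide, the log2 difference of Ehhadh was 1.20 (SE 0.52, unadjusted p = 0.0312) at 3 months and 1.12 (SE 0.48, unadjusted p = 0.0280) at 14 months. The average over both times was 1.16 (SE 0.35, unadjusted p = 0.00342, adjusted p = 0.579). The 3-month direction turned when the slides on which arrays were hybridized were taken into account, with a difference of -0.22 with slide as a block. On slide B, which alone held both diets at 3 months, it was -0.42, between 2 BD 3 arrays and 1 CD 3 array. That control array, CD 3 replicate 1, was 1 of 2 arrays with many non-uniform spots (4.66%, against at most 0.0588% on the others). With the block the 14-month difference was 1.80, which rests on the 2 CD 14 arrays of slide C. Between the times, Ehhadh differed by 0.07 on control diet and by -0.013 on BASE-diet. These values too turned on the slides, being -1.39 and 0.63 with the block, and on single arrays, with ranges of -0.32 to 0.33 and -0.31 to 0.22 when 1 was left out. On slide E, with 1 array of each control group, the difference was -1.12.

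Without regard to slide, Hsd17b4 had the smallest diet differences of the 9 genes. With slide as a block, its 3-month difference was -0.36, larger in size than those of Ehhadh (-0.22) and Pex11a (0.14). The mean ± SD was -0.02 ± 0.32 among the 5 CD 3 rats and 0.04 ± 0.40 among the 5 BD 3 rats, and at 14 months it was -0.03 ± 0.41 among the 6 rats on control diet and 0.03 ± 0.40 among the 6 on BASE-diet. The averaged diet difference was 0.06, and its 95% confidence interval ran from -0.30 to 0.41. At each time the sign of its difference turned with single arrays left out and with other settings.

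The 2 auxiliary enzymes Ech1 and Decr2 prepare double bonds of unsaturated fatty acids for beta-oxidation, Ech1 as a dienoyl-CoA isomerase and Decr2 as the peroxisomal dienoyl-CoA reductase. Ech1 on the CD 3 arrays was at -1.41, 0.26, -0.74, -1.32 and -0.77, and on the BD 3 arrays at -0.36, -0.15, -0.58, -0.19 and -0.22. The lowest, median and highest values were -3.02, -1.09 and -0.77 in CD 14, and -0.92, -0.13 and 0.28 in BD 14. In BD 14, 5 of 6 arrays lay above the highest array of CD 14, and BD 14 replicate 2 was the exception. The log2 difference was 0.50 (SE 0.36) at 3 months, where it was 0.76 without CD 3 replicate 2, and 1.15 (SE 0.33, unadjusted p = 0.00226, adjusted p = 0.725 by limma) at 14 months. The difference between these 2 effects was 0.65 (SE 0.49, unadjusted p = 0.199), so that a change of the effect with time was not shown. With slide as a block, the Ech1 difference was 1.01 at 3 months and 0.93 at 14 months, and the difference between these was -0.088. CD 14 replicate 3, at -3.02, was by far the lowest array, and without it the 14-month difference of Ech1 was 0.81 and the difference of the effects 0.31.

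Decr2 on the CD 3 arrays was at -0.38, 0.81, 0.26, -3.11 and 0.07, and on the BD 3 arrays at -0.06, 0.48, 0.01, 0.76 and 0.37. One control array, CD 3 replicate 4, which also had the weakest signal of the 22, stood far below the rest, and without it the 3-month difference of 0.78 was 0.12. At 14 months the lowest, median and highest values were -1.01, -0.61 and 0.10 in CD 14, and -0.14, 0.19 and 1.04 in BD 14. Here all 6 BD 14 arrays lay above the CD 14 median, and 5 of 6 CD 14 arrays lay below the lowest BD 14 array. The difference of Decr2 was 0.88 (SE 0.44, unadjusted p = 0.0602) at 14 months and 0.83 (SE 0.33, unadjusted p = 0.0195, adjusted p = 0.627 by limma) as the average, and the average was 0.50 without CD 3 replicate 4.

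Crat, carnitine O-acetyltransferase, forms carnitine esters of acetyl and short acyl groups in peroxisomes and mitochondria. The CD 3 arrays were at -0.08, 0.10, -0.22, -0.67 and -0.23, and the BD 3 arrays at 0.15, 0.67, 0.48, 0.49 and -0.13, so that 4 of 5 BD 3 arrays lay above every CD 3 array. In CD 14 its lowest, median and highest values were -2.35, -0.32 and -0.03, and in BD 14 they were -0.95, 0.12 and 0.47. The averaged difference of Crat was 0.64 (SE 0.24, unadjusted p = 0.0161, adjusted p = 0.613 by limma). Its 14-month difference of 0.73 (SE 0.33, unadjusted p = 0.0388) was 0.41 without CD 14 replicate 3, the lowest array.

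Pex11a encodes the peroxin that elongates peroxisomes before they divide and is the inducible member of its family. On the CD 3 arrays it was at -0.12, -0.02, -0.63, 0.73 and -0.26, and on the BD 3 arrays at -0.60, 0.13, 1.04, 1.59 and -0.10. Its lowest, median and highest values were -2.56, -0.96 and 0.16 in CD 14, and -1.88, 0.38 and 1.20 in BD 14. The spread was wide in both groups at 14 months, with an SD of 1.02 in CD 14 and 1.06 in BD 14, and BD 14 replicate 2 lay among the lowest control arrays. The diet difference of Pex11a was 0.47 (SE 0.54) at 3 months, where it was 0.18 without BD 3 replicate 4 and 0.14 with slide as a block, 1.10 (SE 0.49, unadjusted p = 0.0364) at 14 months and 0.79 (SE 0.37, unadjusted p = 0.0433, adjusted p = 0.686 by limma) as the average. Without CD 14 replicate 3 the 14-month difference of Pex11a was 0.79. In rats on control diet, the median of Pex11a was -0.12 at 3 months and -0.96 at 14 months. The time difference of -0.94 (SE 0.52, unadjusted p = 0.0840, adjusted p = 0.563 by limma) was the largest of the 9 genes on this diet, and it was -1.54 with slide as a block.

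Of the acyl-CoA oxidases, Acox2 acts on bile acid intermediates and Acox3 on branched-chain acyl-CoAs. Acox2 had the one 14-month diet difference below 0 among the members, and its sign turned with the slides. The CD 3 arrays were at -1.25, -0.01, -1.28, -2.49 and -2.82, and the BD 3 arrays at -0.34, 0.21, -0.43, -1.46 and 0.15. At 14 months, its lowest, median and highest values were -2.05, -1.11 and -0.33 in CD 14, and -2.13, -1.51 and -0.81 in BD 14. BD 3 had the highest mean of the 4 groups, and the other groups, with means from -1.57 to -1.13, lay within their SDs of each other. The diet difference of Acox2 was 1.19 (SE 0.44, unadjusted p = 0.0133, adjusted p = 0.540 by limma) at 3 months. At 14 months it was -0.36 (SE 0.40, unadjusted p = 0.376), -0.20 without CD 14 replicate 1, and 0.27 with slide as a block. This last value is by design the difference within slide C, which held all BD 14 arrays and 2 CD 14 arrays. The test of the difference between these effects gave -1.56 (SE 0.60, unadjusted p = 0.0165, adjusted p = 0.993), and Acox2 was the single member with an unadjusted p under 0.05 there, beside 2.32% of all probes that were lower. In rats on BASE-diet, Acox2 differed by -1.12 (SE 0.42, unadjusted p = 0.0151, adjusted p = 0.556) between 14 and 3 months, and by 0.23 with slide as a block, which turned the direction. Without the block it was the single member at that level, beside 2.68% of all probes that were lower, and on control diet the time difference of Acox2 was 0.44 (SE 0.42), 0.13 without CD 3 replicate 5 and 1.43 with slide as a block.

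Acox3 was the dimmest member and its values rested on few arrays. Its diet difference of 0.24 (SE 0.50) at 3 months was -0.32 without CD 3 replicate 4, where the probe stood at -2.69 and was not well above background, and 1.14 with Cy5 alone (quantile-normalized between arrays). At 14 months the difference of Acox3 was 0.54 (SE 0.45), with arrays from -1.30 to -0.39 in CD 14 and from -1.16 to 1.05 in BD 14. It was 0.26 without BD 14 replicate 2, its highest array, 0.13 with Cy5 alone, and -0.0099 in Cy5 with each array's median taken out.

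**Figure D3:**
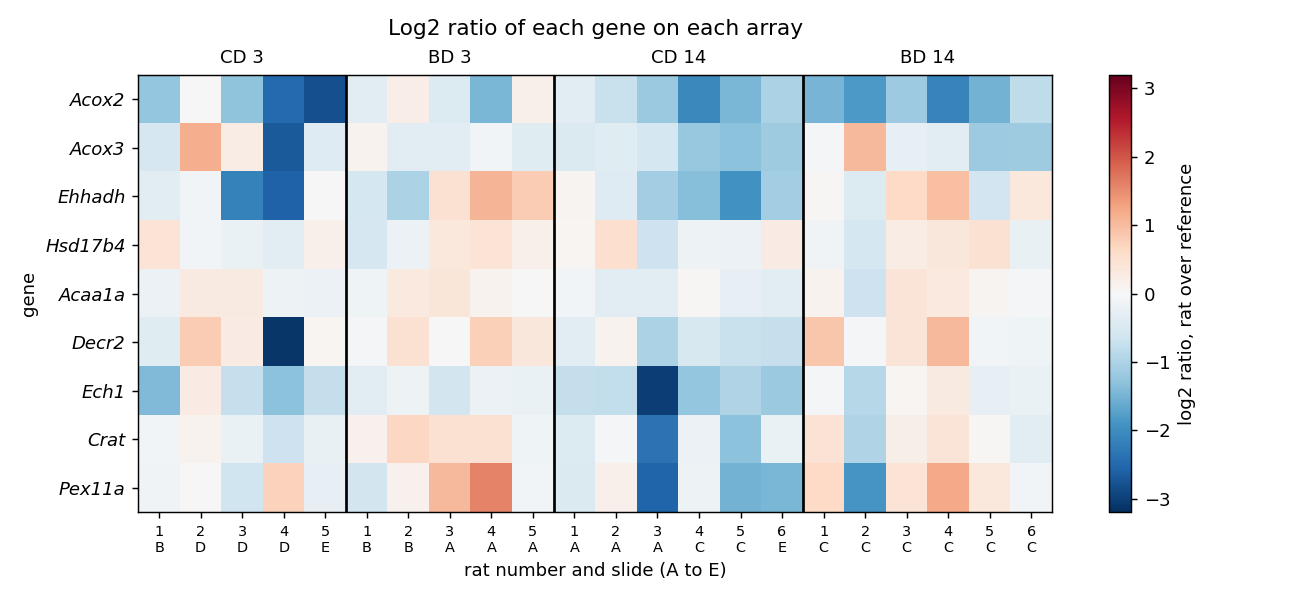
Log2 ratio of rat liver to the common reference (colour scale) for each gene (rows) on each of the 22 arrays (columns, with the rat number and the slide, A to E). CD 14 replicate 3 is low for Ech1 (-3.02), Crat (-2.35) and Pex11a (-2.56) together, and CD 3 replicate 4 for Decr2 (-3.11), Acox3 (-2.69) and Ehhadh (-2.60).

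The thiolase Acaa1a, which cleaves the shortened chain, was measured by 2 probes that lie 101 bases apart on chromosome 8 of rn4, and they gave differences of unlike size. At the brighter probe (chr8:124313801-124313860), the mean ± SD was 0.01 ± 0.26 for CD 3, 0.13 ± 0.22 for BD 3, -0.23 ± 0.17 for CD 14 and 0.04 ± 0.38 for BD 14. At the other probe (chr8:124313700-124313759), the same groups were at -0.17 ± 0.42, 0.16 ± 0.21, -0.53 ± 0.31 and 0.36 ± 0.48. The 14-month diet difference was 0.27 (SE 0.18, unadjusted p = 0.140) by the brighter probe of Acaa1a, where it was -0.011 with Cy5 alone, 0.29 in Cy5 with each array's median taken out, and 0.41 without BD 14 replicate 2, and 0.89 (SE 0.22, unadjusted p = 0.000603, adjusted p = 0.558 by limma) by the other. With arrays weighted by their quality, the value of the other probe of Acaa1a was 1.01 and its adjusted p by limma 0.0474. The other probe also lists a transcript of Acaa1b, a nearly identical thiolase gene, and the brighter lists Acaa1a alone, so that the second value may hold signal of both genes. For Acaa1b, the brightest probe, which lists an Acaa1a transcript as well, had a 14-month difference of 0.97 (SE 0.32, unadjusted p = 0.00649).

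Taken within each array, the other Acaa1a probe minus the brighter one was -0.30 ± 0.22 (mean ± SD) over the 6 CD 14 arrays and 0.32 ± 0.16 over the 6 BD 14 arrays. The highest CD 14 array was at 0.02 and the lowest BD 14 array at 0.12, so these groups did not overlap. At 3 months it was -0.18 ± 0.22 over the CD 3 arrays and 0.02 ± 0.17 over the BD 3 arrays. This comparison was made after the values were seen, and how often probe pairs of other genes separate the groups was not counted. Exact permutation tests of this comparison were run at both times, without regard to the slides. Their p-values are not given, since it was chosen after the values were seen. On slide C alone, the diet difference was 0.84 by the other probe and 0.15 by the brighter.

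**Figure D4:**
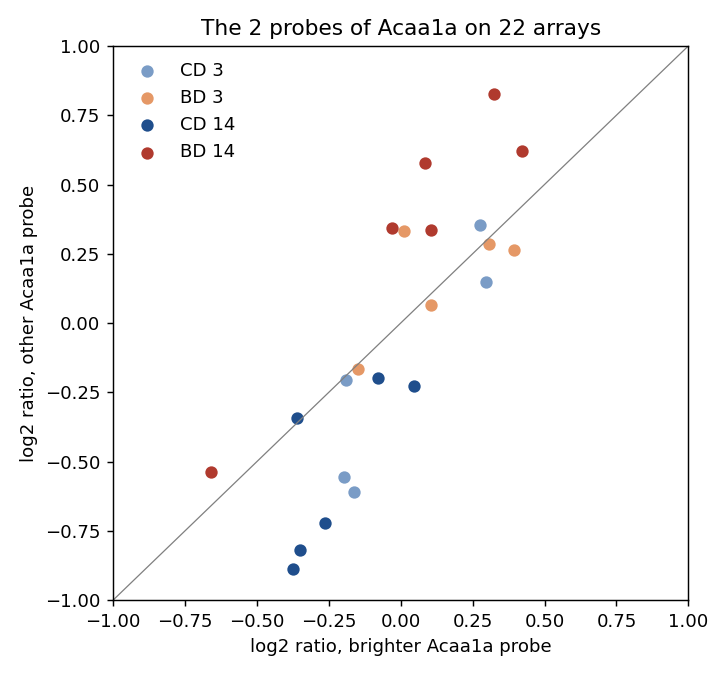
Log2 ratio at the brighter Acaa1a probe (x axis) and at the other Acaa1a probe (y axis) on 22 arrays, coloured by group; the grey line marks equal values. The 6 BD 14 arrays lie 0.12 to 0.50 above the line, and the CD 14 arrays from 0.52 below it to 0.02 above it.

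The values of the genes were related across rats. Of the 36 pairs of members, 33 had a Pearson correlation above 0 over the 22 arrays, with a median of 0.41 and the highest values for Crat with Ech1 (0.81) and Crat with Pex11a (0.80). With the group means taken out, 31 of 36 were above 0 and the median was 0.35, so most of this was shared between rats of one group. Acox3 with Pex11a had the lowest value, -0.09 over the 22 arrays and -0.33 with group means taken out. These arrays share slides and the reference RNA, pairs of other probes were not counted, and the correlations are given as a description. Averaged over the 9 genes on each array, the mean log2 ratio ± SD over arrays was -0.51 ± 0.60 for CD 3, 0.06 ± 0.21 for BD 3, -0.76 ± 0.46 for CD 14 and -0.15 ± 0.35 for BD 14. The lowest array was CD 14 replicate 3 at -1.43 and the next CD 3 replicate 4 at -1.41, and BD 14 replicate 2, at -0.70, was the lowest on BASE-diet.

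Among 16496 other genes, those whose brightest probe followed the mean of the standardized members most closely over the 22 arrays included Eci1 (r = 0.89), Hadh (r = 0.88), Slc25a20 (r = 0.87) and Acadm (r = 0.84). Eci1, Hadh and Acadm are mitochondrial beta-oxidation enzymes, and Slc25a20 is the carnitine-acylcarnitine carrier of the inner mitochondrial membrane. With group means taken out, the closest included Gde1 (r = 0.87), Eci1 (r = 0.86), an unnamed probe (r = 0.86) and Hnrnpl (r = 0.86).

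The rest of the pathway was read from 4 lists, whose counts at an unadjusted p under 0.05 stand beside 5.53% of all probes that were higher at this level for the average, 4.99% at 3 months and 3.79% at 14 months. Of 19 other peroxisomal beta-oxidation enzymes and transporters, 18 were tested, with a median averaged diet difference of 0.20, and 4 were higher and 0 lower at an unadjusted p under 0.05. Among them were Acaa1b (0.76, SE 0.24), Crot (0.72, SE 0.26), the carnitine octanoyltransferase that exports medium-chain products, and Phyh (0.72, SE 0.33), which starts the alpha-oxidation of phytanic acid. Of 17 peroxisome assembly genes other than Pex11a, 1 was higher, Pex5 (0.66, SE 0.25), the import receptor for matrix proteins, which is near the share over all probes, and the median was 0.02. Among 12 further peroxisomal enzymes, 1 was higher, Hao1 (0.79, SE 0.33), a glycolate oxidase, and the median was 0.37. Of 25 genes comprising PPARalpha itself, its partner Rxra and targets outside the peroxisome, 11 were higher and 0 lower, with a median of 0.44. Acot1 (2.92, SE 0.43, adjusted p = 0.0167 by limma) was the single one of all these genes that passed the correction. No probe of the array was called in this comparison with slide as a block (0), nor without CD 3 replicate 3, CD 3 replicate 4, BD 3 replicate 2 or BD 3 replicate 4. Cpt1a (1.16, SE 0.32), which admits acyl groups to mitochondria, and Cyp4a1 (0.93, SE 0.27), a fatty acid omega-hydroxylase, followed it by p, and Ppara itself had a difference of 0.56 (unadjusted p = 0.152 by limma).

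By time, the list of other peroxisomal beta-oxidation genes had 0 genes with p under 0.05 before adjustment when compared after 3 months and 6 after 14 months, all higher, with medians of 0.11 and 0.36. Among them were Crot (1.18, SE 0.35), Acaa1b, Nudt7 (0.67, SE 0.28), a peroxisomal coenzyme A diphosphatase, Abcd3 (0.48, SE 0.22), a peroxisomal acyl-CoA transporter, and Phyh (0.92, SE 0.44). In the assembly list, 2 were higher at 3 months, Pex5 (1.25, SE 0.37) and Fis1 (0.47, SE 0.16), a membrane adaptor of organelle division, and 0 at 14 months. For the difference of the diet effect between the times, 0 of the 18 beta-oxidation genes had an unadjusted p under 0.05, so that a change of it was not shown. In the assembly list, Pex5 (-1.18, SE 0.50, unadjusted p = 0.0274) and Fis1 (-0.63, SE 0.21, unadjusted p = 0.00757) did, with adjusted p of 0.998 and 0.985 by limma. Over all probes, 2.32% were lower at this level for the difference of the diet effect.

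Between the times, most members were at lower values after 14 months. On control diet, 7 of 9 had a log2 difference below 0 between 14 and 3 months, with a median of -0.24, and 0 reached an unadjusted p under 0.05, while 53.4% of all probes were above 0 (median 0.03) and 3.29% were lower at that level. On BASE-diet, 7 of 9 were below 0, with a median of -0.09, and 1, Acox2, was lower at an unadjusted p under 0.05, while 58.6% of all probes were above 0 (median 0.07) and 2.68% were lower at that level. With slide as a block, 4 of 9 were below 0 on BASE-diet, where Acox2 was at 0.23 and Ehhadh at 0.63, and 8 of 9 on control diet.

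The slides on which the rats were hybridized did not hold the groups evenly. All 6 BD 14 arrays shared slide C with 2 CD 14 arrays, whereas 3 other CD 14 arrays lay beside 3 BD 3 arrays on slide A. Both remaining BD 3 arrays were on slide B with 1 CD 3 array, and the other CD 3 arrays were on slides D (3) and E (1, with 1 CD 14 array). With slide as a block, the 3-month difference of Ehhadh was -0.22 in place of 1.20, and on slide B, the one slide with both diets at 3 months, it was -0.42. The 14-month difference of Ehhadh was 1.80 with the block. Since all BD 14 arrays were on slide C, a 14-month difference with the block is by design that within slide C. It thus rests on 2 CD 14 arrays. Within slide C, the difference was 0.93 for Ech1, 0.96 for Decr2, 0.93 for Pex11a, 0.72 for Crat, 0.95 for Acox3 and 0.27 for Acox2, which thereby turned its sign. For Acox2, the slide block gave 1.47 at 3 months and turned the time difference on BASE-diet from -1.12 to 0.23, and all BD 14 arrays were on slide C while no BD 3 array was. Averaged over both times with the block, the difference was 0.79 for Ehhadh, 0.97 for Ech1, 0.67 for Decr2, 0.74 for Crat and 0.54 for Pex11a, and 2 of 9 members, Ech1 and Acox2, had an unadjusted p under 0.05 by limma.

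**Figure D5:**
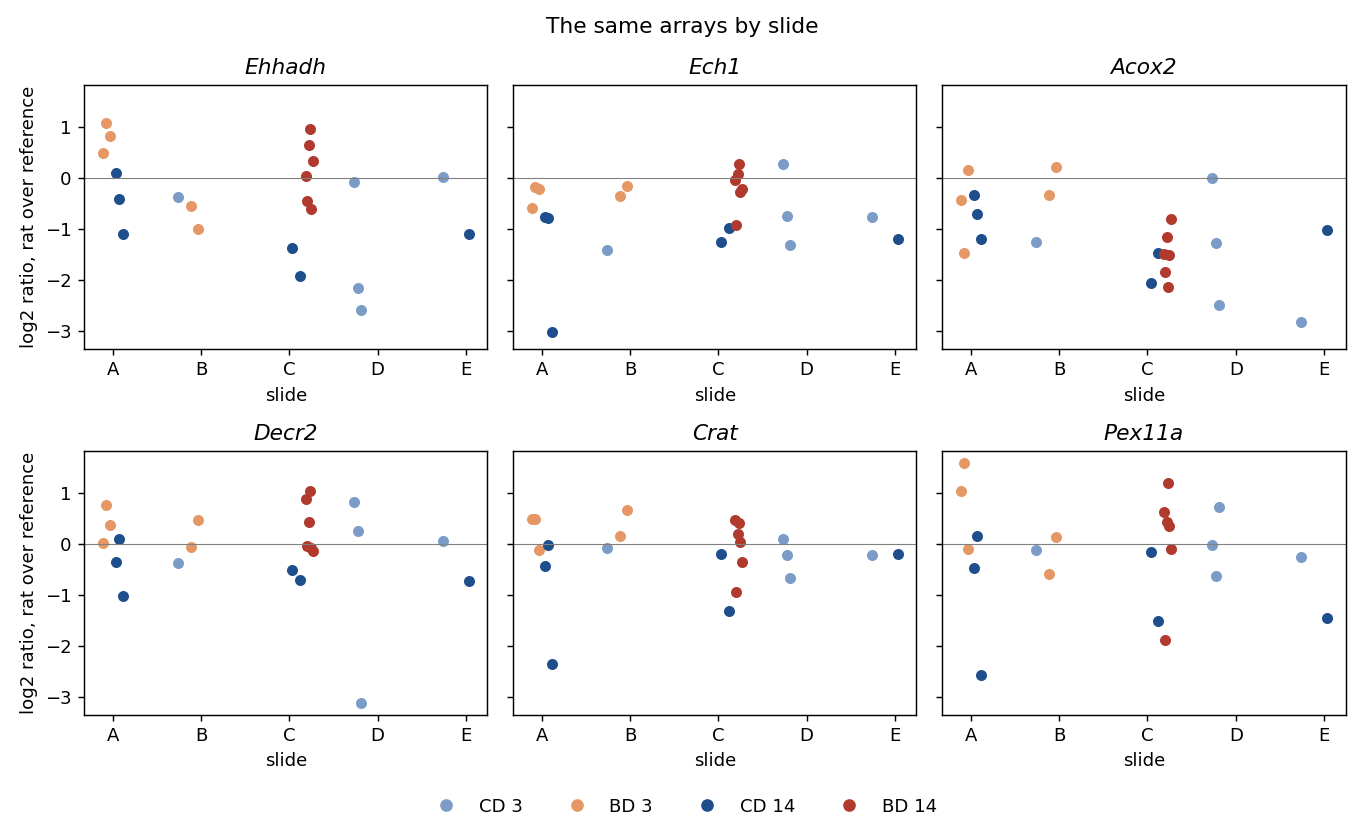
Log2 ratio of rat liver to the common reference (y axis) by slide (x axis) for 6 genes; each point is 1 array, coloured by group. On slide C the 2 CD 14 arrays of Ehhadh lie at -1.37 and -1.93 and the 6 BD 14 arrays between -0.62 and 0.97, while on slide B the BD 3 arrays lie at -0.56 and -1.01 and the CD 3 array at -0.36.

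The reference channel was looked at on its own, with each array's median taken out. The averaged diet difference of the Cy3 signal was 0.13 for Ehhadh, -0.15 for Ech1, 0.16 for Decr2, 0.13 for Crat and 0.16 for Pex11a, against 1.27, 0.65, 0.96, 0.74 and 0.92 in the Cy5 signal of the rats. These 5 genes were taken for their unadjusted p in the average. At single times the Cy3 differences were larger for some of them, at 0.36 for Pex11a and 0.33 for Crat at 14 months and 0.34 for Decr2 at 3 months. For Acox3 the difference was 1.06 in Cy3 and 1.28 in Cy5 at 3 months, and -0.51 in Cy3 and -0.0099 in Cy5 at 14 months. For Hsd17b4 at 14 months it was 0.52 in Cy3 and 0.55 in Cy5.

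Markers of other liver cells were read alongside. At 14 months, 0 of 6 Kupffer cell and macrophage markers had an unadjusted p under 0.05 for diet, and their summed Cy5 signal ran from 9326 to 53511 in CD 14 and from 8858 to 23337 in BD 14. Of these 6 markers, 0 had a diet difference above 0 at 14 months (median -0.22), while 5 had one at 3 months (median 0.68, 0 at an unadjusted p under 0.05), next to a median of 0.50 for the members at that time. The 3 endothelial markers likewise had a median of 0.25 at 3 months, with 3 above 0, and of -0.44 at 14 months, with 0 above 0. Between CD 14 and CD 3, 4 of the 6 macrophage markers were higher at an unadjusted p under 0.05, with a median of 1.17, beside 6.85% of all probes that were higher. The 3 red cell markers (Hba-a2, Hbb, Alas2) all had averaged diet differences below 0, with a median of -0.51, and 1 of them, Hbb (-0.87), had an unadjusted p under 0.05. Their summed Cy5 signal ran from 103614 to 324639 in CD 3, from 47459 to 231770 in BD 3, from 136781 to 306868 in CD 14 and from 127849 to 221643 in BD 14. Of the 6 hepatocyte markers, 3 had differences above 0 and 3 below, with a median of -0.12 and 0 at an unadjusted p under 0.05. Cidec, the single one of 4 adipocyte markers that passed the detection filter, had a difference of 1.16 (SE 0.21, adjusted p = 0.170 by limma). The part of cell composition in the differences of the members was not tested.

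PPARalpha with its partner binds direct repeats of the half-site AGGTCA with 1 base between the copies. The promoters of 8 members in RefSeq (rat build GRCr8, 250 bases before to 50 after the start) were searched on both strands for 2 such half-sites. With at most 1 mismatch in the pair, 0 of 8 held a match, against 0.463% of 27457 promoters. With at most 2 mismatches, 1 of 8 did, against 3.71% of all. It lay in the Crat promoter, at positions -223 to -211 from the start, and is shown in capitals within the first 60 bases of that promoter.
Crat promoter, chr3:34087290-34087349, minus strand: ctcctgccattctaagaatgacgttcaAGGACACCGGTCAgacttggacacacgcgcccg
The match describes letters within this window alone.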

How the data were processed

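Total RNA of 22 rat livers was hybridized on Agilent two-colour arrays, 1 array per rat. Per the labels, the rat's RNA carried Cy5 and the reference Cy3 on every array without dye swaps, while the methods assign Cy3 to control and Cy5 to BASE-diet rats, and the labels were followed. The authors deposited the raw and processed intensity values of every spot from Agilent Feature Extraction (version 10.7.3.1 in the submitters' processing notes, 10.10.1.1 in the file headers), in which background had been subtracted and dyes normalized by Lowess within each array. Per the file headers, the log10 ratio is that of the processed signals. The authors also deposited log2 values of probes that they had found significant, which hold only the Ech1 probe among the members. For 17 of its 22 columns the best-matching array has the column's own name, and the rest belong to CD 3. Of these, 1 column matches no array well (best r = 0.49) and the array of CD 3 replicate 1 is matched by none, so the CD 3 mean of this alternative is not over the same rats.

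Log10 ratios were turned to log2 and averaged over the spots of a probe, leaving out controls and spots flagged non-uniform, with no scaling between arrays. The detection filter kept the 19434 probes for which, in 1 or more groups, a share of 0.5 of the spots exceeded background clearly in Cy5 on all arrays. The 4 group means were fitted over all 22 arrays with limma 3.58.1 in R 4.3.3 (eBayes, prior degrees of freedom 3.37), as a moderated F test and 6 contrasts, with Benjamini-Hochberg adjustment over the tested probes and a threshold of 0.05. The brightest probe in Cy5 stands for a gene. RefSeq accessions named 18005 probes and the files the others. Summaries and figures used numpy 2.4.6, pandas 2.3.3 and matplotlib 3.10.9 (Python 3.11.15), and the steps were tested on simulated data.

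The members and gene lists were chosen with earlier results of these data known. All members are named, other pathway genes at an unadjusted p under 0.05 (at most 6 per comparison, smallest p first), and the 5 genes most like the members, whereas Crot, Phyh, Pex5, Hao1 and Ppara in the average, Nudt7, Abcd3 and Phyh at 14 months, Pex5 and Fis1 in the difference between the times, and the markers Hbb and Cidec were named after their values were seen. Some genes that the rule would name are not reported here. Slides are named A to E, and the number of arrays limits the precision. The alternatives were normexp (offset 50) with loess, Cy5 alone (quantile-normalized), median-centred arrays, 2 other filters, non-uniform spots kept, slide or rat number as a block, array weights, the methods' ANOVA with Tukey's HSD, only the groups compared, any probe, the deposited values and each array left out. Chosen after seeing the data were the omission of 2 arrays with many non-uniform spots, the slide of all BD 14 arrays alone and the comparison of the Acaa1a probes.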

Additional observations from a re-analysis of the deposited data

Results flagged for a closer look

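Of the 36 sets of values, 9 genes in each of 4 groups, 1 had an array that stood apart by Dixon's test, whereas chance flags about 1 in 20. It was Ech1 in CD 14, where CD 14 replicate 3 was at -3.02 and the other 5 arrays lay between -1.25 and -0.77. The gap made up 0.788 of the range of the group. Crat and Pex11a were also lowest in CD 14 on this array. Without it, the 14-month diet difference of Ech1 was 0.81 in place of 1.15.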

How the results depend on the processing

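The count of members whose brightest probe passed the correction was 0 in each of the 7 tests under every alternative run and with each array left out. The lowest adjusted p of a member's brightest probe in any of these fits was 0.0727. The other Acaa1a probe had an adjusted p of 0.0474 at 14 months with array weights (1.01), and between 0.239 and 1 in the other fits. Over all probes, the 1 call for the average of both times became 0 with slide as a block, 2 with the rat number as a block and 59 with Cy5 alone. The 0 calls over all probes at 3 months became 221 with Cy5 alone, 93 without CD 3 replicate 5 and at most 4 in the other fits, and those at 14 months at most 4 (array weights). Between CD 14 and CD 3 they became 205 without CD 3 replicate 5, 10 with Cy5 alone and at most 2 otherwise, and between BD 14 and BD 3 99 with array weights, 22 with only these groups and at most 6 otherwise. The difference of the diet effects had 1 call with Cy5 alone, and the 5 calls of the F test became 140 without CD 3 replicate 5, 106 with Cy5 alone and 0 to 12 otherwise. Counts of members at an unadjusted p under 0.05 moved more. At 3 months the 2 became 0 (the methods' ANOVA with Tukey's HSD) to 4 (Cy5 alone), and 1 to 4 with single arrays left out: 1 without CD 3 replicate 3, 4 or 5 or BD 3 replicate 3, 4 or 5, and 4 without CD 3 replicate 2. At 14 months the 4 became 1 (the slide block or Tukey's HSD) to 6 (array weights), and 1 to 5 with single arrays left out: 1 without CD 14 replicate 5 or BD 14 replicate 3 or 4, and 2 without CD 14 replicate 3 or BD 14 replicate 1 or 5. For the average of both times the 5 became 2 (slide block) to 6, and 4 to 6 with arrays left out.

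Of 1082 refits of 34 log2 differences of the members, 32 turned the sign. With slide as a block these were Ehhadh at 3 months (-0.22) and Acox2 at 14 months (0.27, by design the same on slide C alone). Also with the block, they were Acox2 over time on BASE-diet (0.23) and Ehhadh over time on control diet (-1.39) and on BASE-diet (0.63). The others with the block were the Ech1 difference of the diet effects (-0.088), and Hsd17b4 at 3 months (-0.36) and averaged (-0.075). With Cy5 alone they were Hsd17b4 at 3 months (-0.13) and Acaa1a at 14 months (-0.011). With median-centred arrays Hsd17b4 at 14 months was at -0.0064, and with array weights Acox3 at 3 months was at -0.084 and Ehhadh over time on BASE-diet at 0.12. Leaving out 1 array gave Acox3 at 3 months a range of -0.32 to 0.65, Ehhadh over time ranges of -0.32 to 0.33 on control diet and -0.31 to 0.22 on BASE-diet, and Hsd17b4 ranges of -0.041 to 0.20 at 3 months, -0.070 to 0.17 at 14 months and -0.0062 to 0.13 averaged. The cause was not tested.

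No pairing by rat number was seen. Deviations of same-numbered arrays correlated between -0.26 and 0.29, and those of differently numbered arrays between -0.33 and 0.45. With the rat number as a replicate block, 0 members passed in any comparison, and at an unadjusted p under 0.05 there were 1 at 3 months, 2 at 14 months and 5 averaged. Signal over background limits Acox3 most.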
